A study of Mus musculus with 4 samples.

Results

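Elfn1, Elfn2, Lrrtm1, Lrrtm2, Lrrtm3, Lrrtm4, Flrt2, Flrt3, Slitrk1 and Slitrk3 encode single-pass membrane proteins whose extracellular leucine-rich repeats bind receptors on the opposite side of a synapse. These 10 genes were taken by symbol from the 43348 genes of the count matrices, each matched 1 gene, and their counts were followed across cell classes, regions and genotypes. As background, leucine-rich repeat organizers sit mostly on the receiving side of a synapse, where they gather the matching presynaptic receptor and help set how the synapse releases transmitter. Elfn proteins bind group III metabotropic glutamate receptors, Lrrtm proteins bind neurexins and heparan sulfate proteoglycans, Flrt proteins bind latrophilins and Unc5 receptors, and Slitrk proteins bind receptor tyrosine phosphatases of the LAR type. Elfn1 is known in the forebrain for the facilitating excitatory synapses on somatostatin interneurons, and Slitrk3 for the assembly of inhibitory synapses.

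The study asked how the NMDA receptor shapes interneurons born in the medial ganglionic eminence (MGE), and sequenced single cells of mice aged postnatal day 18 to 20. All mice carried Nkx2-1-Cre, which acts in MGE progenitors, and an Ai14 reporter that makes recombined cells express TdTomato. Controls were Grin1 wt/wt littermates (WT), and the mutants were Grin1 fl/fl (Grin1-null), which lose the obligatory NMDA receptor subunit in the Cre lineage. Frontal cortex and hippocampus of 3 to 4 WT or Grin1-null animals, male and female, were dissociated on consecutive days. Tetrodotoxin, APV and actinomycin-D were in the recovery, dissociation and sorting buffers, and TdTomato-positive cells were sorted by FACS. The methods do not say whether the genotypes of a replicate shared a day, so day and genotype cannot be told apart.

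The Cre lineage limits the model: oligodendrocyte-lineage cells, glutamatergic neurons and other cells were also present after the sort, and Grin1 was absent from the lineage from before birth, so early and late effects of its loss cannot be told apart. Each of the 4 groups (each genotype in each region) came as 1 matrix of unique molecular identifier (UMI) counts in which the barcode suffix tells the libraries apart, with 3 WT and 2 Grin1-null libraries per region. The 10x 3' chemistry was version 2 for replicate 1 and version 3 for the others. Because animals were pooled, the spread between libraries is the spread between preparations.

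Sequencing depth varied widely among the 10 libraries. The WT cortex libraries held 9306756, 14212183 and 28057207 UMIs, and the WT hippocampus libraries held 10555408, 8782181 and 20639002. The Grin1-null cortex libraries held 1488601 and 25688337 UMIs, and the Grin1-null hippocampus libraries held 3856745 and 47338167. Of 26987 barcodes, 26201 had 200 to 6000 genes and under 30% mitochondrial UMIs and were kept. At most 12 barcodes were shared by a pair of libraries, and in no pair were more than 0.552% of the smaller library shared. Grin1-null cortex replicate 1 was the smallest library, with 177 kept cells. WT hippocampus replicate 2 stood apart in another way: it had the lowest median depth, 1479 UMIs a cell, and held 95.6% of the cells of precursor cluster 28, 85.5% of neurogliaform cluster 19 and 44% of SST cluster 5. It also held 88.4% and 88.5% of mature oligodendrocyte clusters 3 and 14, and 93.2% of cluster 17 of committed and newly formed oligodendrocytes. Without it, 6, 4, 5 and 9 organizers were called in the class comparisons of SST with PVALB, SST with NGFC, PVALB with NGFC and OPC with mature oligodendrocytes, against 6, 6, 5 and 9 with it.

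Cells were clustered without the 10 organizers and without the other synaptic genes listed here, so the classes were not built from them. Clusters were named from fixed markers as SST-like, PVALB-like, neurogliaform-like (NGFC), glutamatergic-like, oligodendrocyte precursor-like (OPC), committed or newly formed oligodendrocyte-like and mature oligodendrocyte-like, and are written below without "-like". Following the study, clusters rich in TH-type markers (cluster 12, marked by Th and Nr4a2, and cluster 13, marked by Crh and Tac2) were joined to the SST class. The markers matched these names in pooled WT cells. Sst stood at 13886 CPM (UMIs of a gene per 1e6 UMIs of its class) in SST cells against 787 in PVALB and 206 in NGFC cells. Pvalb stood at 1616 CPM in PVALB cells against 111 in SST cells, and Lamp5 at 494 CPM in NGFC cells against 0.89 in SST cells. Pdgfra marked OPCs at 879 CPM and stood at 2.59 CPM in mature oligodendrocytes, where the myelin gene Mog reached 4237 CPM. Mog was not at 0 elsewhere, with 33.5 CPM in SST, 20.9 in PVALB and 51 in NGFC cells; the part of such stray RNA in low counts was not tested. Cluster 25, marked by Oxt, Avp and Tacr1, met SST markers but had none among its 10 top genes and stayed unnamed, with 182 cortical and 95 hippocampal WT cells and 76 cortical and 57 hippocampal Grin1-null cells.

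Grin1 itself was read first, since it checks the genotype labels. In SST cells, Grin1 stood at 152, 253 and 232 CPM in the WT cortex libraries and 36.7 and 28.3 CPM in the Grin1-null ones. Hippocampal SST cells held 121, 175 and 157 CPM in WT and 21.2 and 22 CPM in Grin1-null libraries. PVALB cells held 116, 215 and 180.1 CPM in WT cortex and 42 and 23.4 in Grin1-null cortex, and 99, 167 and 124 CPM in WT hippocampus and 21.8 and 16.8 in Grin1-null hippocampus. Every Grin1-null library lay below every WT library of its region in SST, PVALB and NGFC cells, so the labels fit the target. The part of Grin1 flanked by loxP sites is not given in the sources used here, and the remaining UMIs were not traced to exons. The log2 difference in SST cells was -2.73 ± 0.33 (standard error) in cortex, with an adjusted p of 0.029 from edgeR's quasi-likelihood test (Benjamini-Hochberg over all genes), above the threshold of 0.01 used for calls. In hippocampal SST cells it was -2.79 ± 0.33, with an edgeR adjusted p of 0.025. Thus the main edgeR fit, with at most 2 Grin1-null libraries a region, did not call the deleted gene at this threshold in SST, PVALB or NGFC cells, and a count of 0 in that fit has to be read with that in view. DESeq2 did call Grin1, with adjusted p of 2.1e-12 and 6.4e-13 in cortical and hippocampal SST cells and 6.1e-06 and 6.2e-07 in PVALB cells.

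Class differences were tested in the 6 WT libraries with library as a term, and a gene was called when its log2 change was 0.144 or more in size (0.1 in natural log) with an adjusted p below 0.01. SST and PVALB cells differed in 6 of the 10 organizers, 4 higher and 2 lower in SST cells, where 22.8% of all 10182 genes tested were called. When WT cortex replicate 3 was left out, 3 organizers and 1489 genes were called, against 6 and 2318. Between SST and NGFC cells 6 of 10 were called, 2 higher and 4 lower in SST cells, against 24.1% of all genes. Between PVALB and NGFC cells 5 of 10 were called, 2 higher and 3 lower in PVALB cells, against 24% of all genes. The median log2 difference of the 10 genes was 0.09, -0.35 and -0.03 in these comparisons, beside 0.00, -0.01 and -0.02 for all genes. All 10 passed the filter on low counts. The 3 comparisons share the same SST, PVALB and NGFC sums, so they are not independent of each other.

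**Figure D1:**
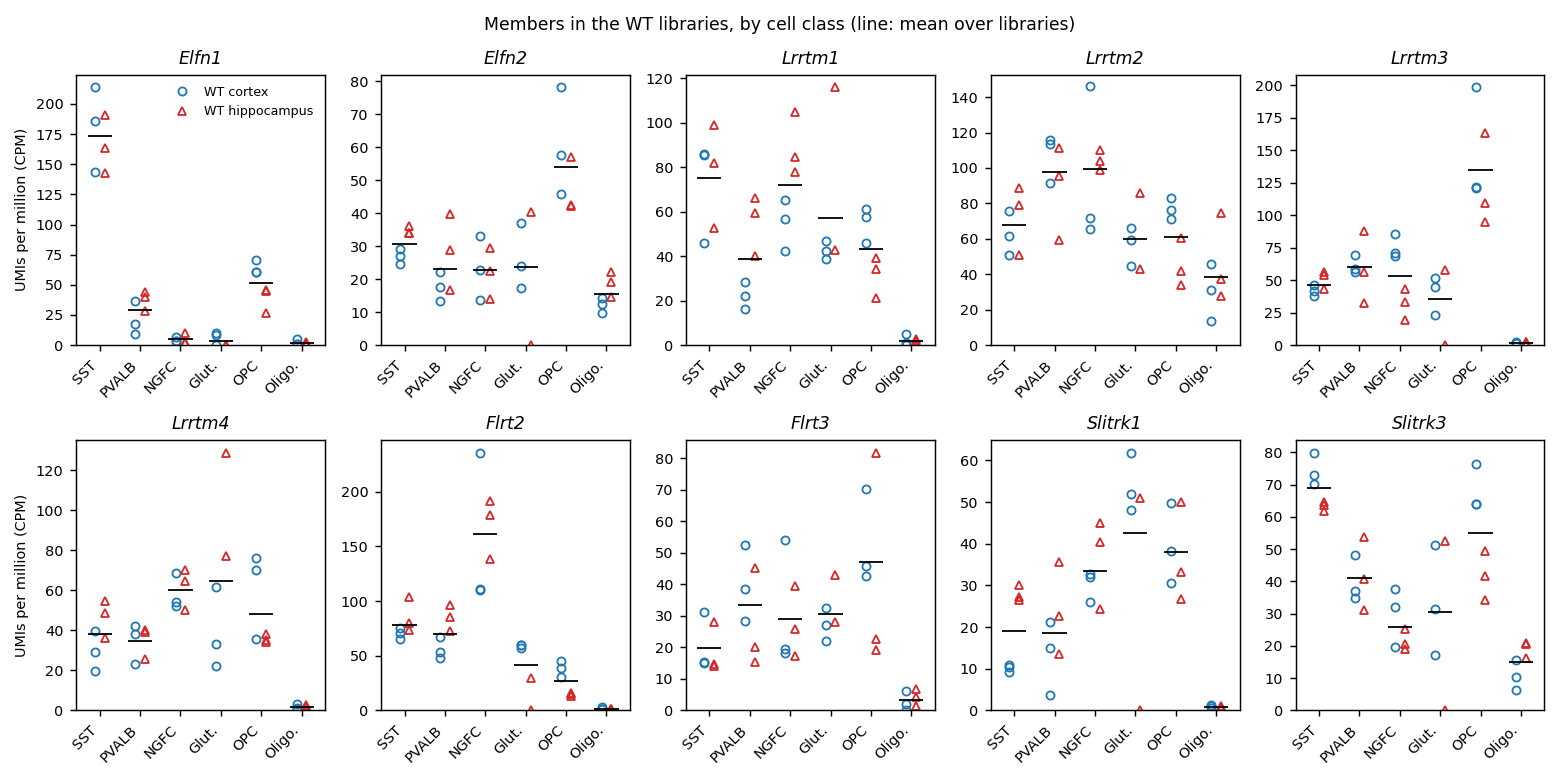
Level of each organizer (CPM, linear axis) in 6 cell classes of WT mice, with 1 point per library (circles cortex, triangles hippocampus) and a line at the mean. Elfn1 lay at 143 to 214 CPM in SST cells and 1.62 to 10.3 CPM in NGFC cells.

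Elfn1, which recruits the presynaptic receptor mGluR7 to excitatory synapses on SST interneurons, had its highest level in SST cells. Its level in SST cells was 143, 186 and 214 CPM in WT cortex and 143, 163 and 191 CPM in WT hippocampus. PVALB cells of the same libraries held 9.19, 36.4 and 17.6 CPM in cortex and 28.3, 44.2 and 40 CPM in hippocampus. NGFC cells held 3.27, 7.07 and 3.06 CPM in cortex and 10.3, 2.82 and 1.62 CPM in hippocampus. The 3 sets of libraries overlapped only between PVALB and NGFC cells, and in each of the 6 libraries the order was SST, then PVALB, then NGFC. Elfn1 was higher in SST than in PVALB cells by 2.80 ± 0.20 in log2 (edgeR adjusted p 1.5e-09) and higher than in NGFC cells by 5.64 ± 0.32 (adjusted p 3.9e-11). PVALB exceeded NGFC cells by 2.84 ± 0.45 (edgeR adjusted p 5.3e-05), a difference that rests on 22 Elfn1 UMIs in all NGFC cells. Over all classes the WT means ran from SST (173 ± 28.4 CPM, SD, n = 6) through OPC (51.5 ± 15.7) and PVALB (29.3 ± 13.6) to committed oligodendrocytes, NGFC, glutamatergic cells and mature oligodendrocytes, the last at 1.77 ± 1.57 CPM. Only the step from SST to OPC had library ranges that did not overlap, although PVALB cells exceeded committed oligodendrocytes in each of the 6 libraries.

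The class means hid sharp differences among clusters. Elfn1 stood at 278, 179.5, 265 and 296 CPM in SST clusters 4, 5, 9 and 10, marked by Cbln4 and Calb2, Trhde and Reln, Myh8 and Nr2f2, and Pdyn and Rbp4. Cluster 24, marked by Npy, Chodl and Nos1, held 30.4 CPM and cluster 13 held 39 CPM. Cluster 12, with Th and Nr4a2, held only 3.4 CPM, close to the level in NGFC cells, although it counted in the SST class. The reverse appeared among PVALB cells, where cluster 1, marked by Pvalb, Tac1 and Syt2, held 9.71 CPM and cluster 26, marked by Pthlh and Thsd7a, held 138 CPM. These cluster levels are pooled over WT cells and were not tested.

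**Figure D2:**
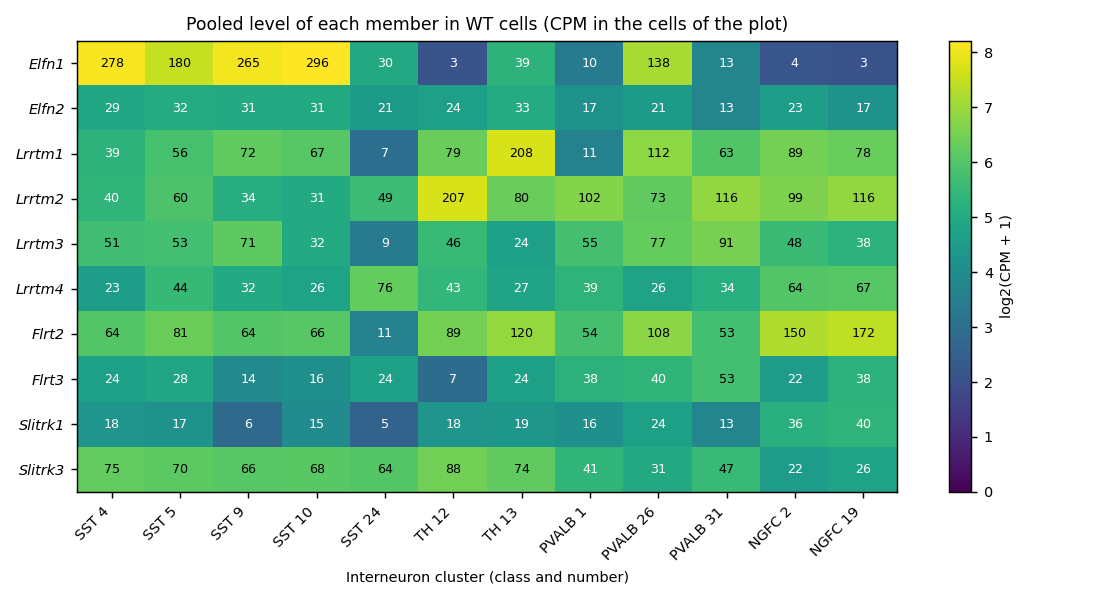
Level of each organizer in 12 interneuron clusters of WT mice, pooled over libraries, with CPM as numbers and color on a scale of log2(CPM + 1). Elfn1 was at 296 CPM in SST cluster 10 and 3.4 CPM in cluster 12, and Lrrtm1 at 208 CPM in cluster 13.

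The share of single cells with an Elfn1 UMI followed the levels. In WT cortex 54% of SST cells had at least 1 Elfn1 UMI (95% Wilson interval 52.3 to 55.6%), at a median depth of 7074 UMIs a cell. Among PVALB cells of WT cortex, with a median of 7379 UMIs, the share was 9.6% (8.12 to 11.3%). Mature oligodendrocytes, the class with the lowest Elfn1 level, gave 0.82% (0.48 to 1.4%) at a median of 4066 UMIs, and NGFC cells gave 1.69% (0.726 to 3.91%) at 4614 UMIs, so these intervals overlapped. With every cell thinned to 1000 UMIs the shares in WT cortex were 16.4% in SST, 1.88% in PVALB, 0.391% in NGFC and 0.148% in mature oligodendrocytes. In hippocampus the thinned shares were 12.7% in SST, 5.48% in PVALB, 0.538% in NGFC cells and 0.114% in mature oligodendrocytes. Thinning left out 147 SST cells of WT cortex and 174 of WT hippocampus that were shallower than 1000 UMIs, and these intervals cover counting error only.

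Elfn2, the second Elfn gene and likewise a binding partner of group III metabotropic receptors, was higher in SST than in PVALB cells, with a call that depended on single libraries. It stood at 24.5, 27 and 29.1 CPM in SST cells of WT cortex and 33.9, 36 and 34 CPM in WT hippocampus. PVALB cells held 17.5, 22.3 and 13.3 CPM in cortex and 39.6, 28.9 and 16.7 CPM in hippocampus, a range that overlapped that of SST cells. Within libraries SST exceeded PVALB cells in 5 of 6, and the log2 difference was 0.62 ± 0.16 (edgeR adjusted p 0.0059). This call was lost without WT cortex replicate 1 (0.64, edgeR adjusted p 0.016), without WT cortex replicate 3 (0.42, adjusted p 0.12) and without WT hippocampus replicate 3 (0.59, adjusted p 0.017). Across classes its WT mean was highest in OPCs (53.9 ± 13.7 CPM, SD, n = 6) and committed oligodendrocytes (53.2 ± 24.9) and lowest in mature oligodendrocytes (15.3 ± 4.48). No pair of neighbouring classes in that order had library ranges that were apart.

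Lrrtm1, a neurexin ligand of excitatory postsynapses, was lower in PVALB cells than in SST and NGFC cells. SST cells held 85.8, 46.1 and 85.6 CPM in WT cortex and 82, 52.6 and 98.8 CPM in WT hippocampus. In PVALB cells it stood at 28.5, 21.9 and 16.1 CPM in cortex and 59.4, 66.3 and 40 CPM in hippocampus. NGFC cells held 65.3, 42.4 and 56.6 CPM in cortex and 84.8, 77.9 and 105 CPM in hippocampus. The ranges over all 6 libraries overlapped, but PVALB lay below NGFC in each of the 6 libraries and below SST in 5. The SST to PVALB difference was 1.33 ± 0.21 in log2 (edgeR adjusted p 6.1e-05), and PVALB minus NGFC was -1.29 ± 0.26 (adjusted p 5.0e-04). Again 1 cluster stood out on each side. Cluster 13, the Crh and Tac2 cells, held 208 CPM while the Chodl cluster 24 held 6.92, and among PVALB cells the Pthlh cluster 26 held 112 CPM against 11.2 in cluster 1.

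Lrrtm2, the family member studied most for holding AMPA receptors at excitatory synapses, was lower in SST cells than in the other interneurons. Its WT means were 67.8 ± 15.8 CPM in SST, 97.7 ± 21.3 in PVALB and 99.4 ± 29.1 in NGFC cells (SD, n = 6), with overlapping ranges. SST lay below NGFC cells in each of the 6 libraries and below PVALB cells in 5. The log2 difference from SST to PVALB was -0.62 ± 0.13 (edgeR adjusted p 7.9e-04), and -0.54 without WT cortex replicate 3 (adjusted p 0.015, not called). From SST to NGFC it was -0.60 ± 0.14 (edgeR adjusted p 0.0021), and the call was lost without WT cortex replicate 2 (-0.54) and without WT hippocampus replicate 2 (-0.49). The Th and Nr4a2 cluster 12, at 207 CPM, was highest within the SST class, whose other clusters held 31.3 to 80 CPM.

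Lrrtm3 and Lrrtm4, which bind heparan sulfate chains as well as neurexins, parted ways. Lrrtm3 was not called in any of the 3 interneuron comparisons, with means of 46.6 ± 7.27 CPM in SST, 60 ± 18.1 in PVALB and 53.4 ± 25.5 in NGFC cells (SD, n = 6). Its log2 differences were -0.35 ± 0.19 for SST minus PVALB, -0.11 ± 0.22 for SST minus NGFC and 0.25 ± 0.24 for PVALB minus NGFC. Lrrtm4 was highest among the interneurons in NGFC cells, at 52.2, 54.2 and 68.8 CPM in WT cortex and 50.1, 64.8 and 70 CPM in WT hippocampus. Each of the 6 libraries had less Lrrtm4 in SST and in PVALB cells than in NGFC cells, with log2 differences of -0.69 ± 0.13 (SST minus NGFC, edgeR adjusted p 3.3e-04) and -0.66 ± 0.15 (PVALB minus NGFC, adjusted p 0.0017). SST and PVALB cells could not be ordered for Lrrtm4, since 3 libraries went each way. The Chodl cluster 24 was at opposite ends for the pair, with 9.34 CPM of Lrrtm3 and 76.1 CPM of Lrrtm4, against 31.7 to 70.7 and 23.2 to 44.3 CPM in SST clusters 4, 5, 9 and 10.

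Flrt2, a latrophilin and Unc5 ligand that also guides migrating neurons, set NGFC cells apart. NGFC cells held 111, 236 and 110.1 CPM in WT cortex and 191, 178 and 139 CPM in WT hippocampus. The libraries' SST values ran from 65 to 104 CPM and their PVALB values from 47.8 to 96.2 CPM, so that no NGFC library overlapped either class. Flrt2 was lower in SST than in NGFC cells (SST minus NGFC -1.03 ± 0.10 in log2, edgeR adjusted p 1.2e-07) and lower in PVALB than in NGFC cells (PVALB minus NGFC -1.24 ± 0.12, adjusted p 7.3e-08). Both NGFC clusters shared the high level, with 149.8 CPM in cluster 2 and 172 CPM in cluster 19. The lowest interneuron cluster was the Chodl cluster 24, at 11.4 CPM.

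Flrt3, the related ligand of latrophilin 3, was lower in SST than in PVALB cells. It stood at 15, 31.3 and 15.4 CPM in SST cells of WT cortex and 14.8, 28 and 14 CPM in WT hippocampus. PVALB cells held 28.5, 52.4 and 38.5 CPM in cortex and 45.3, 15.3 and 20 CPM in hippocampus. The classes overlapped, with SST below PVALB cells in 5 of 6 libraries. The log2 difference was -0.86 ± 0.18 (SST minus PVALB, edgeR adjusted p 6.9e-04), or -0.62 with an adjusted p of 0.032 when WT cortex replicate 3 was left out. In both classes of WT cortex, and in SST cells of WT hippocampus, replicate 2 held the most Flrt3. SST minus NGFC was -0.59 ± 0.21 and not called (adjusted p 0.038).

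Slitrk1, which acts through receptor tyrosine phosphatases at excitatory synapses and in neurite growth, was highest among interneurons in NGFC cells. Their WT libraries held 32.7, 25.9 and 32.1 CPM in cortex and 24.4, 45.1 and 40.5 CPM in hippocampus. SST cells held 9.3, 10.9 and 10.5 CPM in WT cortex and 26.5, 30 and 27.1 CPM in WT hippocampus. They held less than NGFC cells in 5 of the 6 libraries, and PVALB cells did in all 6. The class fit gave a single value over both regions. The SST to NGFC difference was -0.84 ± 0.23 (edgeR adjusted p 0.0081), close to the threshold. It was not called when any of 5 libraries was left out, with log2 values of -0.78, -0.77 and -0.69 without WT cortex replicates 1, 2 and 3, and -0.85 and -0.96 without WT hippocampus replicates 2 and 3. PVALB minus NGFC was -0.61 ± 0.27 and not called (edgeR adjusted p 0.083).

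Slitrk3, an inhibitory-synapse organizer that binds Ptprd, was highest in SST, lower in PVALB and lowest in NGFC cells. SST cells held 70, 79.9 and 73.1 CPM in WT cortex and 61.9, 63.6 and 64.6 CPM in WT hippocampus. PVALB cells held 34.9, 48.3 and 37.1 CPM in cortex and 53.8, 40.8 and 31.1 CPM in hippocampus. In NGFC cells the values were 19.6, 37.7 and 32.1 CPM in cortex and 20.6, 25.4 and 19.1 CPM in hippocampus. Every SST value lay above every PVALB and NGFC value, and in each of the 6 libraries PVALB exceeded NGFC cells. The log2 differences were 0.85 ± 0.10 for SST minus PVALB (edgeR adjusted p 1.1e-06), 1.45 ± 0.12 for SST minus NGFC (adjusted p 9.9e-09) and 0.60 ± 0.15 for PVALB minus NGFC (adjusted p 0.0028). The last was 0.52 and not called without WT hippocampus replicate 3. Slitrk3 was present in every cluster of the SST class, from 63.6 CPM in the Chodl cluster 24 to 88.2 CPM in the Th and Nr4a2 cluster 12.

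In glutamatergic cells, which reached 5 WT libraries with 10 or more cells, Lrrtm4 averaged 64.7 ± 42 CPM and Slitrk1 42.6 ± 24.4 CPM (SD, n = 5), with ranges that overlapped those of OPCs and NGFC cells. Elfn1 stood at 3.61 ± 4.97 CPM in them. In WT hippocampus replicate 2 only 25 glutamatergic cells were counted, its Lrrtm4 value rested on 3 UMIs, and glutamatergic values are given as levels without a test.

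The oligodendrocyte lineage gave the broadest contrast. Between OPCs, the dividing and synapse-bearing precursors, and mature oligodendrocytes, 9 of the 10 organizers were called, all 9 higher in OPCs, against 51.8% of all 9284 genes tested, of which 2364 were higher and 2446 lower. The median log2 difference of the 10 was 3.65, beside -0.04 for all genes. That median depends on scaling: with library-size scaling in place of TMM it was 0.52 for all genes, 3889 genes were higher and 1429 lower, and the same number of organizers, 9, was called. Leaving out WT hippocampus replicate 2, which held most of OPC cluster 28, also left 9 called.

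Lrrtm3 differed most, with 198, 121 and 121 CPM in OPCs of WT cortex and 164, 95 and 109 CPM in WT hippocampus. In mature oligodendrocytes it stood at 1.61, 2.25 and 1.68 CPM in cortex and 1.16, 2.69 and 2.52 CPM in hippocampus. The groups were far apart, OPCs exceeded all the other classes without overlap, and the log2 difference was 5.40 ± 0.25 (edgeR adjusted p 1.1e-14). With cells thinned to 1000 UMIs, 11.6% of OPCs and 0.295% of mature oligodendrocytes of WT cortex had an Lrrtm3 UMI, and in hippocampus 11.3% and 0.17% did. Thinning left out 67 OPCs and 230 mature oligodendrocytes of WT cortex, and 256 and 405 of WT hippocampus, which were shallower than 1000 UMIs. Without thinning the cortical shares were 18.3% at a median of 1456 UMIs and 0.82% at 4066 UMIs, so the shallower cells had the higher share.

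Slitrk1 was higher in OPCs by 4.90 ± 0.36 in log2 (edgeR adjusted p 2.3e-11), Elfn1 by 4.20 ± 0.35 (adjusted p 2.9e-10) and Lrrtm1 by 3.86 ± 0.45 (adjusted p 6.8e-08). Elfn1 reached 61, 70.3 and 60.3 CPM in OPCs of WT cortex and 45.6, 26.4 and 45 CPM in WT hippocampus, from 108 UMIs in all. Those values overlapped the range of PVALB cells. The remaining called genes were Lrrtm4 (3.81 ± 0.36), Flrt2 (3.49 ± 0.39), Flrt3 (3.10 ± 0.34), Elfn2 (1.18 ± 0.22) and Slitrk3 (1.03 ± 0.25). When only cells with 1000 or more genes and no more than 10% mitochondrial UMIs were used, 6 organizers were called, Slitrk3 was not, and Elfn1 and Flrt2 were not tested. Lrrtm2 differed by -0.08 ± 0.23 and was not called, with 61.2 ± 19.5 CPM in OPCs and 38.3 ± 20.7 CPM in mature oligodendrocytes (SD, n = 6), where CPM values carry no TMM scaling. The means of committed and newly formed oligodendrocytes lay between those of OPCs and mature oligodendrocytes for Lrrtm3 (44.7 ± 15.4 CPM), Lrrtm1 (17.9 ± 8.72 CPM), Elfn2 (53.2 ± 24.9 CPM) and Slitrk1 (2.44 ± 1.9 CPM). The same held for Lrrtm2 (53.8 ± 15.5 CPM), Lrrtm4 (18.7 ± 8.83), Flrt3 (10.75 ± 10.2), Elfn1 (5.42 ± 5.55) and Flrt2 (3.86 ± 2.26). The Slitrk3 mean of committed and newly formed oligodendrocytes, 12.9 ± 5.89 CPM, lay below those of both OPCs and mature oligodendrocytes.

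Region was tested as hippocampus minus cortex within each class of the 6 WT libraries, and no organizer was called by edgeR's quasi-likelihood test in the main fit, which holds no replicate term. With the replicate number as a block edgeR called 1 organizer, Slitrk1 in SST cells, and 335, 55 and 5 genes in SST, PVALB and NGFC cells. In SST cells 0 of 10 were called by the main fit against 0.0418% of 11973 genes (5 genes), in PVALB cells 0 of 10 against 0.0113% of 8831 genes (1 gene), and in NGFC cells 0 of the 9 tested against 0% of 7860 genes. The SST count fell to 0 without WT cortex replicate 1, 2 or 3 or WT hippocampus replicate 3, and the PVALB count fell to 0 without any 1 of the 6 libraries. At an unadjusted p under 0.05 edgeR gave 881, 373 and 206 genes in SST, PVALB and NGFC cells, among them 1, 1 and 2 organizers. DESeq2 called 134, 24 and 4 genes, with 1 organizer in SST cells and 0 in the other classes. Elfn1 was too low in NGFC cells to pass the filter there. The median difference of the organizers was 0.19 in SST, 0.30 in PVALB and 0.11 in NGFC cells, beside 0.02, 0.01 and 0.02 for all genes.

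The gene nearest to a regional call was Slitrk1 in SST cells. Cortical SST cells held 9.3, 10.9 and 10.5 CPM and hippocampal ones 26.5, 30 and 27.1 CPM. The regions did not overlap, and replicates 1, 2 and 3 each gave a higher hippocampal value, by 1.42, 1.38 and 1.28 in log2. The fitted difference was 1.38 ± 0.23 with an edgeR adjusted p of 0.063. With the replicate number as a block the edgeR adjusted p was 0.0011, which called Slitrk1 as the only organizer among 335 genes, or 2.8% of those tested. The Grin1-null libraries had the same order, with 11.1 and 15.6 CPM in cortex and 27.7 and 29.4 CPM in hippocampus. Cluster 5 made up 14% of SST cells in WT cortex and 45.7% in WT hippocampus, where 607 of its 672 cells came from replicate 2. Within cluster 4 Slitrk1 stood at 7.32 CPM in cortex (95% Poisson interval 5.18 to 10.1) and 45.6 CPM in hippocampus (36.9 to 55.6). Within cluster 5 the values were 7.93 (3.62 to 15.1) and 25.6 CPM (17.4 to 36.4). In the TH-type cluster 12 they were 19 CPM in cortex (14.1 to 25) and 16.7 CPM in hippocampus (9.14 to 28.1), with overlapping intervals. The intervals cover counting error only.

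In PVALB cells Lrrtm1 was higher in each WT hippocampal library than in any WT cortical one, with 28.5, 21.9 and 16.1 CPM in cortex and 59.4, 66.3 and 40 CPM in hippocampus. The Grin1-null libraries overlapped between the regions, with 24.5 and 46 CPM in cortex and 41.4 and 47.1 CPM in hippocampus. The fitted log2 difference was 1.34 ± 0.34 and not called (edgeR adjusted p 0.37, and 0.0103 with the replicate block). Pthlh cluster 26, where Lrrtm1 was high, made up 8.83% of PVALB cells in WT cortex and 33.2% in WT hippocampus, and the part of this makeup in the difference was not tested. Inside cluster 1 Lrrtm1 stood at 9.04 CPM in cortex (Poisson interval 7.19 to 11.2) and 26.3 CPM in hippocampus (18.3 to 36.5), and inside cluster 26 at 106 and 124 CPM. Elfn1 in the same cells was 8.71 CPM in cortical and 16.5 CPM in hippocampal cluster 1, and 160.5 and 99.6 CPM in cluster 26.

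In NGFC cells Lrrtm3 was lower in every WT hippocampal library, with 68.6, 70.7 and 85.6 CPM in cortex and 19.3, 32.9 and 43.1 CPM in hippocampus. The difference was -1.17 ± 0.36 in log2 and not called (edgeR adjusted p 1, unadjusted p 0.0081). Of the WT NGFC cells, cluster 19 made up 5.08% in cortex and 53.1% in hippocampus, where 514 of its 552 cells came from replicate 2. Within cluster 2 alone Lrrtm3 stood at 77.8 CPM in cortex (Poisson interval 63.6 to 94.3) and 37.3 CPM in hippocampus (31.4 to 44). The intervals cover counting error only, and the part of the makeup in the difference was not tested. Grin1-null NGFC cells held 66.3 CPM in the single cortical library with 10 or more cells and 21.5 and 41.9 CPM in the hippocampal ones. Lrrtm1 in WT NGFC cells was higher in every hippocampal library, by 0.75 ± 0.32 in log2 (edgeR unadjusted p 0.040), and not called. The WT regions were also apart for Elfn2 (higher in hippocampus) and Slitrk3 (lower) in SST cells and Flrt2 (higher) in PVALB cells, none called. The share of all genes with regions apart in this way was not counted.

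Grin1-null minus WT called 0 organizers by edgeR in SST (10 tested), PVALB (10 tested) and NGFC cells (9 tested) of both regions, where 0% of 12853, 0% of 9755 and 0% of 9773 genes were called. At an unadjusted p under 0.05 edgeR gave 274 genes in cortical and 464 in hippocampal SST cells, 362 and 326 in PVALB cells, and 147 and 309 in NGFC cells. DESeq2 called 2 and 2 genes in SST, 15 and 1 in PVALB and 0 and 1 in NGFC cells, none of them an organizer. The test of whether the effect of genotype differed between regions called 0 genes in each class by edgeR and by DESeq2, with 64, 116 and 39 genes at an unadjusted p under 0.05. With the replicate number as a block, Grin1-null minus WT gave more genes at an unadjusted edgeR p under 0.05. They numbered 657 and 1400 in cortical and hippocampal SST cells, and 658 and 832 in PVALB cells. That block changed no organizer call by genotype. The filter on cells also moved with genotype. Grin1-null replicate 2 kept 2578 of 2898 barcodes in cortex and 4055 of 4436 in hippocampus, where WT replicate 2 kept 3830 of 3851 and 4599 of 4600. Grin1-null replicate 1 kept 177 of 181 and 401 of 404, and the part of this in the genotype values was not tested.

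**Figure D3:**
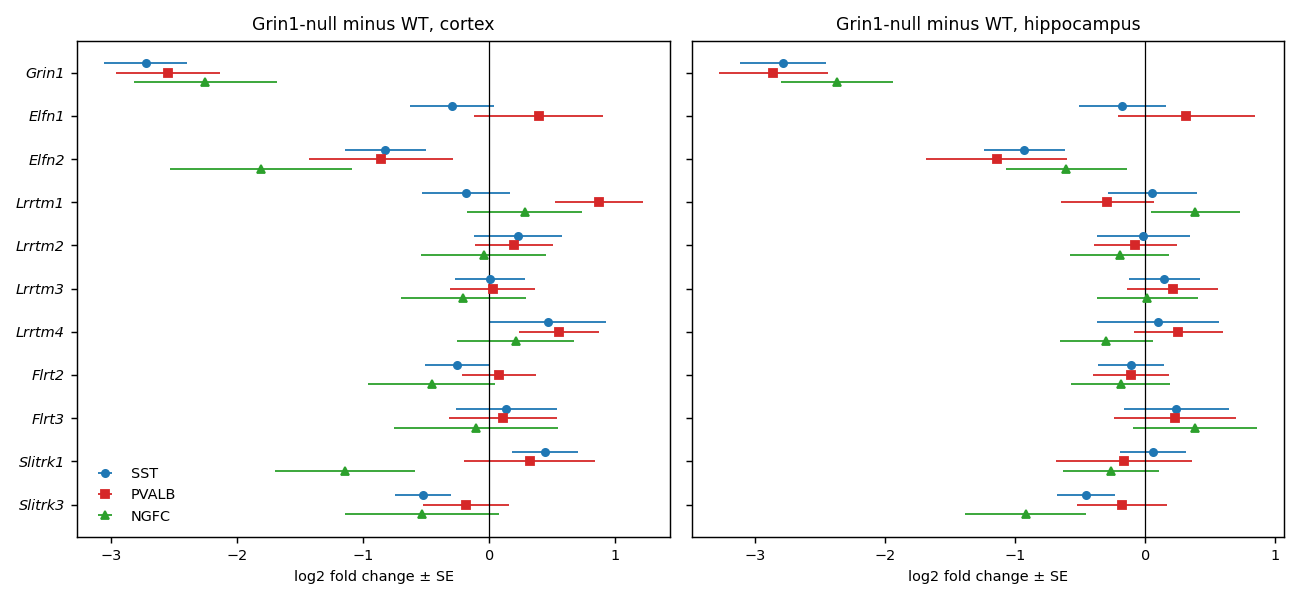
Log2 fold change (Grin1-null minus WT, bars standard errors) of Grin1 and each organizer tested, in cortex and hippocampus, for SST (circles), PVALB (squares) and NGFC cells (triangles). Grin1 in cortical SST cells lay at -2.73 ± 0.33 and Elfn2 at -0.82 ± 0.32.

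Elfn2 had a negative Grin1-null minus WT value in all 6 comparisons of class and region. The classes of a region came from the same libraries, and how many of all genes kept the same sign in this way was not counted. SST cells of Grin1-null cortex held 22.2 and 11.1 CPM, below the WT values of 24.5, 27 and 29.1 CPM, and those of Grin1-null hippocampus held 18.8 and 17.3 CPM, below the WT values of 33.9, 36 and 34 CPM. The groups did not overlap in either region, with log2 differences of -0.82 ± 0.32 in cortex (unadjusted p 0.025 by edgeR's quasi-likelihood test across all genes, adjusted p 1) and -0.93 ± 0.31 in hippocampus (edgeR unadjusted p 0.011, adjusted p 0.97). How many of all genes had groups apart in this way was not counted. In PVALB cells the hippocampal Grin1-null libraries, at 13.1 and 12 CPM, lay below the WT values of 39.6, 28.9 and 16.7 CPM, with a log2 difference of -1.14 ± 0.54. Cortical PVALB cells went both ways, with 24.5 and 6.01 CPM in the Grin1-null libraries against 17.5, 22.3 and 13.3 CPM in WT. Their difference of -0.86 ± 0.57 rested on Grin1-null cortex replicate 2, and without that library it was 0.53. NGFC cells gave -1.81 ± 0.72 in cortex, from 1 Grin1-null library of 97 cells that was assumed to vary like the others, and -0.61 ± 0.46 in hippocampus. None of these 6 values passed the adjusted threshold, and both regions' comparisons of a class share 1 estimate of the spread.

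Within matched replicates, which share the chemistry version, Elfn2 in SST cells differed by -0.14 and -1.21 in cortex and -0.82 and -1.01 in hippocampus for replicates 1 and 2 (Grin1-null minus WT, log2). Clusters were taken up in different shares by the genotypes. Of cortical SST cells, the Chodl cluster 24 made up 17.9% in Grin1-null and 6.51% in WT mice, and cluster 12 made up 21.6% and 10.9%. Of hippocampal SST cells, cluster 5 made up 10.3% in Grin1-null and 45.7% in WT mice, and cluster 4 made up 37.8% and 21.9%. Cluster 19 made up 4.23% of hippocampal NGFC cells in Grin1-null and 53.1% in WT mice. Replicate 2 of WT hippocampus, the library of lowest median depth, held 607 of the 672 WT hippocampal cells of cluster 5. It also held 514 of the 552 of cluster 19. The WT shares of these clusters thus rest mostly on 1 library. The part of the cluster makeup in the genotype values, those of Slitrk3 and Elfn1 below included, was not tested. In WT cells Elfn2 ran from 21.1 CPM in cluster 24 to 32.5 CPM in cluster 13 over the 7 clusters of the SST class.

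Slitrk3 in SST cells was also below WT in each Grin1-null library, with 53.3 and 49.8 CPM in cortex and 44 and 46.7 CPM in hippocampus. The WT values were 70, 79.9 and 73.1 CPM and 61.9, 63.6 and 64.6 CPM, and the share of all genes below WT in this way was not counted. The log2 differences were -0.53 ± 0.22 and -0.46 ± 0.22, neither called (edgeR adjusted p 1 and 0.97). Of the comparisons with 2 Grin1-null libraries, other organizers also did not overlap WT. The share of all genes apart in this way was not counted, so the list is not a result about the organizers. Slitrk1 in cortical SST cells, Lrrtm2 in cortical PVALB cells, and Elfn1 and Lrrtm4 in hippocampal PVALB cells were higher in each Grin1-null library, and Flrt2 in cortical SST cells and Slitrk3 in hippocampal NGFC cells were lower, none of them called. Elfn1 overlapped WT in SST cells of both regions, with 194 and 101 CPM in Grin1-null cortex and 108 and 179.9 CPM in Grin1-null hippocampus. Lrrtm1 in cortical PVALB cells stood at 24.5 and 46 CPM in Grin1-null and 28.5, 21.9 and 16.1 CPM in WT libraries, overlapping, with a difference of 0.87 ± 0.35 that was not called. The makeup of the PVALB class also differed there, with the Pthlh cluster 26 at 27.6% and the Crabp1 cluster 31 at 22.6% of Grin1-null cortical PVALB cells against 8.83% and 2.79% in WT, and its part in that value was not tested. The median difference of all organizers tested was -0.09 and 0.02 in cortical and hippocampal SST cells and 0.15 and -0.09 in PVALB cells, where the medians of all genes were -0.02, -0.03, -0.01 and -0.02. In NGFC cells it was -0.20 in cortex and -0.20 in hippocampus, with medians of all genes of -0.03 and -0.06.

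A list of 30 binding partners was followed in the same sorted cells, and the cells on the other side of these contacts were not analysed here. Of 23 partners tested, 7 were higher and 3 lower in SST than in PVALB cells, where 22.8% of all genes were called, with a median log2 difference of 0.07. The higher ones were led by Grm7, the receptor that Elfn1 recruits (1.79 ± 0.18), Sdc2, a heparan sulfate proteoglycan (1.63 ± 0.23), and the neurexin Nrxn3 (0.59 ± 0.10), and the lower ones were the netrin receptor Unc5b (-3.32 ± 0.28), Ptprd, the partner of Slitrk3 (-1.31 ± 0.14), and the teneurin Tenm1 (-0.92 ± 0.12). Between SST and NGFC cells 11 partners were higher and 6 lower, where 24.1% of all genes were called, with a median of 0.17. Grm7 (4.34 ± 0.33), the latrophilin Adgrl2 (3.63 ± 0.23) and Unc5a (1.95 ± 0.26) led the higher partners, and Unc5c (-3.22 ± 0.14), Ptprd (-2.73 ± 0.13) and Tenm1 (-2.70 ± 0.12) the lower ones. Between PVALB and NGFC cells 7 were higher, led by Adgrl2 (3.56 ± 0.25), Grm7 (2.55 ± 0.44) and Unc5a (1.82 ± 0.29), and 6 lower, led by Unc5c (-2.94 ± 0.16), Sdc2 (-2.01 ± 0.28) and Tenm1 (-1.77 ± 0.12), with a median of 0.29, where 24% of all genes were called. Grm7 thus had the same class order as Elfn1 in these 3 comparisons, SST above PVALB above NGFC.

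In the oligodendrocyte lineage 11 of 18 partners tested were higher in OPCs and 3 lower, where 51.8% of all genes were called, with a median of 1.81. The proteoglycans Sdc3 (6.52 ± 0.28) and Gpc6 (6.51 ± 0.34) led the higher ones, while Unc5b (-6.53 ± 0.33), Tenm4 (-4.56 ± 0.37) and Ptprd (-3.85 ± 0.20) were lower in OPCs. By region 1 of 27 partners was called in SST cells, Tenm2, which binds latrophilins, at 2.29 ± 0.22, and 0 in PVALB and NGFC cells by edgeR, where 5 and 3 partners had an unadjusted p under 0.05. Of all genes, 0.0418%, 0.0113% and 0% were called in these 3 classes, and in PVALB and NGFC cells 373 of 8831 and 206 of 7860 had an unadjusted p under 0.05 by edgeR. The Tenm2 call was lost in 4 of the 6 fits with a library left out, in which 0 genes were called. With the replicate block edgeR called 6 partners in SST cells, where 2.8% of all genes were called, 184 higher and 151 lower in hippocampus. All 6 were higher, from Tenm2 (2.29 ± 0.19) through Unc5d, Tenm3, Gpc6 and Tenm4 to Adgrl2 (1.07 ± 0.19). In PVALB cells, where it called 55 of 8831 genes, 39 of them higher, it called 2 partners, Tenm3 (1.36 ± 0.22) and Unc5d (1.20 ± 0.20), and apart from Tenm2 these were named after their values were seen. No partner was called by edgeR for genotype in any class or region, with at most 1 partner a comparison at an unadjusted p under 0.05.

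The second list held 17 other leucine-rich repeat synaptic genes, of which 14 were tested among interneurons. SST and PVALB cells differed in 10 of them, 5 higher in SST cells, led by Lingo2 (2.58 ± 0.32), Lingo1 (1.75 ± 0.23) and Lrfn5 (1.21 ± 0.15), and 5 lower, led by Slitrk5 (-1.51 ± 0.12), Slitrk2 (-1.35 ± 0.22) and Lrrc4 (-1.17 ± 0.13). So Slitrk3 was higher in SST cells while its relatives Slitrk2, Slitrk4 and Slitrk5 were lower. Between SST and NGFC cells 4 were higher, led by Ntng1 (3.13 ± 0.31), Lingo1 (2.50 ± 0.30) and Lrfn5 (1.99 ± 0.18), and 3 were lower, Slitrk5 (-1.26 ± 0.14), Lrrc4 (-0.75 ± 0.15) and Slitrk4 (-0.42 ± 0.07). PVALB minus NGFC gave 4 higher, led by Ntng1 (2.11 ± 0.38), Slitrk2 (1.78 ± 0.33) and Lrrc4c (1.04 ± 0.15), and 1 lower, Lingo2 (-2.32 ± 0.42). Of 11 tested in the oligodendrocyte lineage, 10 were higher in OPCs, led by Lingo1 (4.59 ± 0.35), Flrt1 (4.32 ± 0.26) and Slitrk4 (3.96 ± 0.43), and Lingo2 was lower (-3.95 ± 0.35). Of all genes, 22.8%, 24.1%, 24% and 51.8% were called in these 4 comparisons. The list's medians were 0.13, 0.19, 0.33 and 3.20 in the same order. None of this list was called by the main edgeR fit for region or genotype, with at most 4 genes a comparison at an unadjusted p under 0.05. With the replicate block edgeR called 1 of the 15 tested by region, where it called 2.8% of all genes: Lrrc4c in SST cells (0.98 ± 0.20), named after its value was seen.

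Several organizers lie inside other genes, which matters for how their reads were counted. In the mouse GENCODE annotation on GRCm38, Lrrtm1 (chr6:77242689-77257791, plus strand) lies inside Ctnna2, Lrrtm2 (chr18:35209003-35215024, minus strand) inside Ctnna1, and Lrrtm3 (chr10:63928472-64090277, minus strand) inside Ctnna3, each on the strand opposite to that alpha-catenin gene. Flrt3 (chr2:140650914-140671469, minus strand) lies inside Macrod2, also on the opposite strand. Lrrtm1 overlapped no exon of its host, whereas Lrrtm2 and Lrrtm3 overlapped 2 and 1 exon entries of theirs. These entries were counted over all annotated transcripts, so an exon may be counted more than once. Whether the counting used strand is not given in the sources used here, so reads of these pairs cannot be told apart on that ground. The levels of the alpha-catenin hosts differed from those of their guests, and the level of Macrod2 was not taken. Ctnna1 was highest in mature oligodendrocytes (109 ± 26.3 CPM) and lowest in SST cells (7.78 ± 2.18 CPM, SD, n = 6), while Lrrtm2 was lowest in mature oligodendrocytes. Ctnna2 stood at 68.5 ± 16.6 CPM in SST, 70.4 ± 6.29 in PVALB and 43 ± 17 in NGFC cells, an order unlike that of Lrrtm1. Ctnna3 stood at 0.94 ± 0.265 CPM in SST cells and had 0 UMIs in WT NGFC cells, where Lrrtm3 had 290 UMIs. In mature oligodendrocytes Ctnna3 stood at 7.37 ± 3.32 CPM, from 158 UMIs, where Lrrtm3 had 45 UMIs.

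The other organizers lie on chromosomes 5 (Elfn1, chr5:139907943-139974722, plus strand), 15 (Elfn2, chr15:78667331-78718771, minus), 6 (Lrrtm4, chr6:80018877-80810143, plus), 12 (Flrt2, chr12:95692226-95785215, plus), 14 (Slitrk1, chr14:108908800-108914158, minus) and 3 (Slitrk3, chr3:73047265-73057803, minus). Their reading frames are compact: 1 exon holds the whole coding sequence of Elfn1, Elfn2, Lrrtm1, Flrt2, Flrt3, Slitrk1 and Slitrk3, while 2 exons share it in Lrrtm2 and 3 in Lrrtm3 and Lrrtm4. Elfn1, Elfn2 and Lrrtm4 also have an annotated gene on the opposite strand within their bounds.

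The genes most like an organizer were found by Pearson's r of log2(CPM + 1) over 35 WT sums of library and class, among 11282 genes, as a description in which points share libraries and depth. Elfn1 was most like Ifit2 (0.88), Timp3 (0.858) and Slc7a3 (0.853), and Elfn2 most like Dag1 (0.914), Lrrcc1 (0.896) and Cstf2 (0.893). Lrrtm1 was most like Gpm6a (0.949), Atp1b2 (0.948) and Pianp (0.947), the last a binding partner of paired immunoglobulin-like receptors. Lrrtm2 had the lowest leading values, with Dennd5b (0.83), Zyg11b (0.796) and Larp4b (0.791). Lrrtm3 was most like Gm9885 (0.945), Ptprg (0.945) and Sfxn1 (0.941). Flrt2 was most like Slitrk4 (0.963), Slc2a13 (0.957) and Scn1a (0.956), a Slitrk relative, an inositol transporter and a sodium channel. Flrt3 was most like Xpr1 (0.908), Map2 (0.883) and Dcx (0.879). Slitrk1 was most like Hectd2 (0.926), Bend5 (0.924) and Bok (0.924), and Slitrk3 most like Fam3c (0.923), Cstf2 (0.897) and Mob1b (0.896). Among the 10 themselves r ran from 0.159 for Elfn2 with Lrrtm4 to 0.909 for Lrrtm1 with Lrrtm4.

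The promoters of Elfn1, Elfn2 and Slitrk3 are shown because Elfn1 and Slitrk3 shared the order SST, PVALB, NGFC, and Elfn2 is the relative of Elfn1. The sequences are 300 bases of GRCm38.p6 from RefSeq, 250 before to 50 after a start given by RefSeq, which for Elfn1 and Slitrk3 differs from the start of the gene in GENCODE, read 5′ to 3′ on the gene's strand, with each CpG in capitals. They lie at chr5:139907616-139907915 on the plus strand (Elfn1), chr15:78718722-78719021 on the minus strand (Elfn2) and chr3:73057017-73057316 on the minus strand (Slitrk3).
Elfn1: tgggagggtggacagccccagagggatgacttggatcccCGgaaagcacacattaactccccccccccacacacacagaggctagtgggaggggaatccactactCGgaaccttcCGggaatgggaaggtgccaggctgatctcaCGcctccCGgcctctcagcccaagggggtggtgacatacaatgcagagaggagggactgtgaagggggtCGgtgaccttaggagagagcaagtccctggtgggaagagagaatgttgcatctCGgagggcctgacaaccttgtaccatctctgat
Elfn2: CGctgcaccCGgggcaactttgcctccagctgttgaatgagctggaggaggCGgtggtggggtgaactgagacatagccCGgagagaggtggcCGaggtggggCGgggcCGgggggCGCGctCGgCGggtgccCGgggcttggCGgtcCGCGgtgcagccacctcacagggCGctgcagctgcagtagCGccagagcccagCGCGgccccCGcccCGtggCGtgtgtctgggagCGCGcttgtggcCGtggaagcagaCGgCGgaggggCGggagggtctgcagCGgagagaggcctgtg
Slitrk3: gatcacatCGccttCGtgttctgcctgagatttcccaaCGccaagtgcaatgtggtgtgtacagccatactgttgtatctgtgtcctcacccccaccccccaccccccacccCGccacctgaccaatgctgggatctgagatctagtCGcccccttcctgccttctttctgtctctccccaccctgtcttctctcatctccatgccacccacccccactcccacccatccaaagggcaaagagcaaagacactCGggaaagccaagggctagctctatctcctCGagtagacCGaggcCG
The Elfn1 promoter is 59% G and C with 7 CpG, and the Slitrk3 promoter 58% with 9 CpG, near the medians of 52.7% and 7 CpG over 32851 promoters. The Elfn2 promoter is denser, with 73.3% G and C and 29 CpG. Entries were found for 9 of the 10 organizers, all but Lrrtm2, with 10 promoters in all. A cyclic AMP response element, TGACGTCA, and an AP-1 site, TGANTCA, were searched on both strands and found in 0 of these 10 windows, against 1.79% and 7.81% of all promoters, which says only that the letters are not in these windows.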

How the data were processed

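Single-cell RNA was measured in 4 groups of sorted cells. The authors mapped reads to the mm10 genome, lengthened gene ends (4 kb), and deposited UMI counts per cell from Cell Ranger (version 2.1.1 in their methods, 3.0.2 in the matrix headers), and these counts were the only values used. Cells were assigned to replicates by barcode suffix, with the cell numbers of each suffix compared with the methods. Here the cells kept (200 to 6000 genes, mitochondrial UMIs under 30%) were integrated with Seurat 5.3.0 (CCA, 2000 variable features, 25 dimensions, resolution 1.0), in R 4.3.3. Clusters were named from fixed markers, with at least 3 markers met; interneuron clusters and clusters of low UMIs also needed 1 of them among the 10 top genes. Counts were summed per library and class where at least 10 cells were present. Sums were tested with edgeR 4.0.16 (TMM, filterByExpr, quasi-likelihood F test, Benjamini-Hochberg over all genes tested), and the scripts were tested on simulated data. The standard error is the absolute log2 change divided by the square root of F, and errors beside CPM means are SDs across libraries. CPM is UMIs of a gene per 1e6 UMIs of the class in a library. Grin1-null NGFC cells of cortex came from 1 library, so the spread was pooled over groups. The named genes were all members, and the 3 most changed called genes per direction of each list; Grin1 and the alpha-catenins were given as levels. A gene that this rule names in the oligodendrocyte lineage, and the genes most like Lrrtm4, are not reported here. Members and lists were chosen with earlier results of these data known. Alternatives were DESeq2 1.42.0, library-size scaling, no filter on low counts, an adjusted p under 0.05, a strict cell filter (at least 1000 genes, at most 10% mitochondrial UMIs), removal of doublets, the members allowed in clustering, resolutions 0.6 and 1.4, a replicate block, each library left out, and cells thinned to 1000 UMIs. Replicate numbers come from the methods, which number the preparations. Deviations of same-numbered WT cortex and hippocampus libraries from their group means correlated at 0.657, 0.616 and 0.374 in SST, 0.513, 0.547 and 0.313 in PVALB, and 0.478, 0.381 and 0.158 in NGFC cells for replicates 1, 2 and 3, so the numbers pair the WT samples. Same-numbered WT and Grin1-null libraries, 2 pairs a region, correlated at 0.193 to 0.315, with no value for cortical NGFC cells. The main genotype fit left the replicate out. The columns of per-sample values not used numbered 0.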

Additional observations from a re-analysis of the deposited data

Results flagged for a closer look

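Elfn1 was flagged for a difference between cell classes in its regional values. Its mean within-replicate log2 difference, hippocampus minus cortex in WT mice, was -0.12 in SST and 0.98 in PVALB cells, a gap of -1.1 (n = 3 replicates). The difference between the classes was not tested. The replicates gave 0.00, -0.19 and -0.16 in SST and 1.52, 0.27 and 1.14 in PVALB cells. The makeup of the PVALB class differed by region, with cluster 26 at 8.83% of it in WT cortex and 33.2% in WT hippocampus. Elfn1 stood at 160.5 and 99.6 CPM inside that cluster and at 8.71 and 16.5 CPM inside cluster 1.

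Lrrtm3 was flagged in the same way, with a mean regional value of 0.27 in SST and -1.28 in NGFC cells, a gap of 1.55 (n = 3 replicates). This difference was not tested either. The replicates gave 0.21, 0.04 and 0.57 in SST and -1.78, -1.08 and -0.97 in NGFC cells.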

How the results depend on the processing

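Over all settings other than left-out libraries, 51 fold changes of members and Grin1 were followed, those called in any fit, with an unadjusted p under 0.05, or of Elfn2 and Grin1 by genotype. Of their 476 values, 449 kept their direction and side of the threshold, 9 were lost, 18 were gained and 0 reversed. Members called between SST and PVALB cells ranged from 3 to 6 when each library was left out, with 3 without WT cortex replicate 3. By region in SST cells, 1 member (Slitrk1) was called with the replicate block and 1 by DESeq2, against 0 in the main fit. The block changed no other member call. Elfn2 in PVALB cells, Grin1-null minus WT in cortex, ranged from -1.55 to 0.53 over left-out libraries and reversed without Grin1-null cortex replicate 2. The causes were not tested.

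Elfn2, SST minus PVALB, was not called by DESeq2 (0.59) or at resolution 1.4 (0.56). Slitrk1, SST minus NGFC, was not called with library-size scaling (-0.81), the strict filter (-0.78) or resolutions 0.6 (-0.83) and 1.4 (-0.70), nor Lrrtm2 at resolution 1.4 (-0.54). Slitrk3, OPC minus OLIGO, was not called with the strict filter (0.83), where 6 members were called, against 9 in the main fit, and Elfn1 and Flrt2 were not tested.

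With cells thinned to 1000 UMIs, Elfn1 shares in WT cortex and hippocampus were 16.4% and 12.7% in SST, 1.88% and 5.48% in PVALB, 0.391% and 0.538% in NGFC, and 0.148% and 0.114% in mature oligodendrocytes. Lrrtm3 shares were 11.6% and 11.3% in OPCs and 0.295% and 0.17% in mature oligodendrocytes. Thinning itself lowers the shares.

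Counts of all genes called moved by over 1.5 times in several fits. By region, the main fit, block, DESeq2, no filter and an adjusted p under 0.05 called 5, 335, 134, 142 and 35 genes in SST, 1, 55, 24, 88 and 9 in PVALB, and 0, 5, 4, 37 and 1 in NGFC cells. PVALB regional calls were 3 with library-size scaling, 2 with the strict filter and 3 with members allowed in clustering. By genotype in cortical PVALB cells they called 0, 5, 15, 59 and 10, and 2 with the strict filter. With no filter, genotype calls in cortex and hippocampus were 21 and 19 in SST and 5 and 24 in NGFC cells, and 18 in hippocampal PVALB cells. SST minus PVALB called 1489 genes without WT cortex replicate 3, against 2318. Regional calls in SST cells fell from 5 to 0 without WT cortex replicate 1, 2 or 3 or WT hippocampus replicate 3 and to 3 without WT hippocampus replicate 1, and in PVALB cells from 1 to 0 without any 1 of the 6. Genotype calls in cortical PVALB cells reached at most 9 over left-out libraries. Of the genes called, OPC minus OLIGO had 49.1% higher with TMM and 73.1% with library-size scaling, and the SST regional fit 80% and 100%. NGFC genotype could not be fitted without Grin1-null cortex replicate 2. At this depth the low Elfn1 level of NGFC cells rests on 22 UMIs in WT libraries.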
